A study of Mus musculus with 8 samples.

Results

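The Slc25 family of mitochondrial carriers was examined in mouse seminiferous epithelium, laser-captured where Sertoli cells are abundant, after exposure to di-(2-ethylhexyl) phthalate (DEHP), a plasticiser and peroxisome proliferator. The members were all genes whose name on the array begins with Slc25a: 32 genes with 53 probes, out of 27962 gene names and 41174 probes. A probe was tested if it was well above background in at least 4 of the 8 DEHP channels or at least 4 of the 8 vehicle channels. In all, 28 members with 41 probes were tested, and each gene was represented by its brightest tested probe. Slc25a15, Slc25a16, Slc25a21 and Slc25a23 were not well above background in enough channels. All 53 member probes carry their current symbol, 40 by transcript accession and 13 by symbol. The label holds for the family but not for every location: Slc25a17 is a carrier of the peroxisome membrane.

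DEHP mice were male C57BL/6J of 21 weeks given 200 mg/kg/day in corn oil by gavage for 21 days, and vehicle mice were of the same strain, sex and age given corn oil alone, with 4 independent mice per group. The captured tissue was the intermediate layer of the seminiferous epithelium of the right testis, and RNA from single caps was amplified in 2 rounds before labelling. The tissue label names areas rich in Sertoli cells, whereas a protocol text speaks of capturing Leydig cells. The 8 Agilent arrays held 4 pairs of 1 DEHP and 1 vehicle mouse, each hybridised in both dye orientations: DEHP mouse 1 with vehicle mouse 2 (pair 1), DEHP mouse 2 with vehicle mouse 3 (pair 2), DEHP mouse 3 with vehicle mouse 4 (pair 3) and DEHP mouse 4 with vehicle mouse 1 (pair 4).

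Of the Sertoli cell markers, 16 of 18 were tested. Germ cell markers were measured as well: 10 of 11 spermatocyte markers, 10 of 10 round spermatid markers and 10 of 10 elongating spermatid markers were tested. Of the Leydig cell markers, 4 of 7 were tested (Cyp11a1, Hsd3b6 and Lhcgr were too dim), and their summed level ranged from 11.43 to 13.48 in DEHP mice and from 11.39 to 13.40 in vehicle mice (log2 intensity). The median log2 ratio of the Leydig markers by pair was -0.27, 1.26, -0.85 and -0.23. A member's signal is therefore a sum over several cell types, and fewer cells of a type and less RNA per cell cannot be told apart. The share of spots detected well above background was 48.8% to 58.3%, depending on array and channel.

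Slc25 proteins share a fold of repeated pairs of membrane helices and move metabolites across the inner mitochondrial membrane, each member with its own substrates. Adenine nucleotide and phosphate carriers supply ATP synthase and export its product, carboxylate and aspartate/glutamate carriers run the shuttles that carry reducing equivalents, and the carnitine carrier brings in fatty acids for oxidation. In the testis, Sertoli cells feed lactate to germ cells, and germ cells use carrier isoforms of their own, of which the ADP/ATP carrier Slc25a31 is the best known. In rodent liver, peroxisome proliferators act through PPARα, and the carnitine carrier gene is among its known targets there.

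Each array probe is a single 60-base oligonucleotide, so what a member's value measures is set by that sequence. The probes of Slc25a4 and Slc25a5 are shown because they read the same stretch of 2 closely related genes. Capitals mark the bases that differ between them over the aligned stretch.
Slc25a4: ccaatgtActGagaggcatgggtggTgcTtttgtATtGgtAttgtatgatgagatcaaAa
Slc25a5: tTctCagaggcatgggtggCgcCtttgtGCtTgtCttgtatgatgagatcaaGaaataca
The Slc25a4 probe lies at chr8:44985343-44985402 on the minus strand and the Slc25a5 probe at chrX:31558243-31558302 on the plus strand, as the array's design gives them in build mm7. The probes match at 45 of 54 aligned bases (83.3%), with a longest shared run of 17 bases. Signal of either gene on the other's probe cannot be told apart here, so the values of Slc25a4 and Slc25a5 are to be read with that in mind. The probe of Slc25a31 (chr3:40491533-40491592, plus strand) matched the same Slc25a4 probe at 13 of 26 aligned bases at best and is shown for contrast.
Slc25a31: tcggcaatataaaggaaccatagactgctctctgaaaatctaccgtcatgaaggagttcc

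The family's own sequence mark, the mitochondrial carrier signature, also appears on some probes. It was searched, on the printed strand only, as codons for proline, any residue, an acidic residue (aspartate or glutamate), any 2 residues and a basic residue (lysine or arginine), in a frame without a stop codon over the probe. It was found on 4 of 53 member probes (7.55%) and on 253 of 41121 other probes (0.615%). The matches were on probes of Slc25a2, Slc25a26, Slc25a3 and Slc25a30. That of Slc25a2 met the same search and is not shown. The other 3 are shown, with the matched codons in capitals.
Slc25a26: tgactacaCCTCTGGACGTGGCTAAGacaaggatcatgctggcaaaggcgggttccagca
Slc25a3: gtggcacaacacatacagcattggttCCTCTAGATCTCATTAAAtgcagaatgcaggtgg
Slc25a30: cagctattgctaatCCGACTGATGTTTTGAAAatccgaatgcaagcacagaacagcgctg
They lie at chr6:94686499-94687292 (plus strand), chr10:90680977-90681034 (minus strand) and chr14:70449984-70450552 (minus strand) in mm7. The first and last span more genome than the probe is long (794 and 569 bases against 60). None of the 3 is the brightest probe of its gene, and that of Slc25a3 was too dim to test. The matching probe of Slc25a2 is the brightest of its gene and gives the value reported for that member. A match is a description of the letters and shows nothing about the level of the gene. Whether a probe lies in coding or untranslated sequence was not taken from an annotation.

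No member passed the test between DEHP and vehicle, and most differed little. In limma, fitted over all 22974 tested probes with Benjamini-Hochberg adjustment, 0 of 28 members had an adjusted p under 0.05, and the members' adjusted p ran from 0.922 to 0.995. Over the whole table the count was 0 as well (0% of 22974 probes), with 1191 probes (5.18%) at an unadjusted p under 0.05. Among the members, 3 of 28 were under that unadjusted level, against 5.29% of the 17063 genes tested. All 3 of them (Slc25a25, Slc25a26 and Slc25a35) were lower after DEHP, as were 2.97% of genes, and 0 of 28 were higher, against 2.31% of genes. That count of 3 was not stable: it was 1 without pair 1, 2 without pair 2, 5 with DEHP in Cy5 alone and 0 with Agilent's processed ratio. The mean ratio was above 0 for 11 of 28 members, against 49.7% of all genes. It was above 0 in all 4 pairs for 4 members, against 6.55% of genes, and below 0 in all 4 pairs for another 4, against 6.78%. The levels of DEHP mice and of vehicle mice overlapped for every one of the 28 members, while they did not overlap for 1.96% of all genes.

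As a group the members stood near 0. Their median log2 ratio of DEHP over vehicle was -0.015, against -0.00068 over all genes. By pair the median was -0.042, -0.025, -0.056 and 0.078, so pairs 1 to 3 were slightly below 0 and pair 4 was above it. The individual members ranged from -0.41 (Slc25a28) to 0.28 (Slc25a4). For 26 of 28 members the 95% confidence interval of the mean lay wholly within a 1.5-fold change in either direction, as it did for 91.8% of all genes. The exceptions were Slc25a28 (-1.25 to 0.42) and Slc25a10 (-0.37 to 0.61). Slc25a20, Slc25a22, Slc25a29 and Slc25a34 were near background in several channels, where a ratio understates a change. Their narrow intervals therefore do not show that they changed little.

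**Figure D1:**
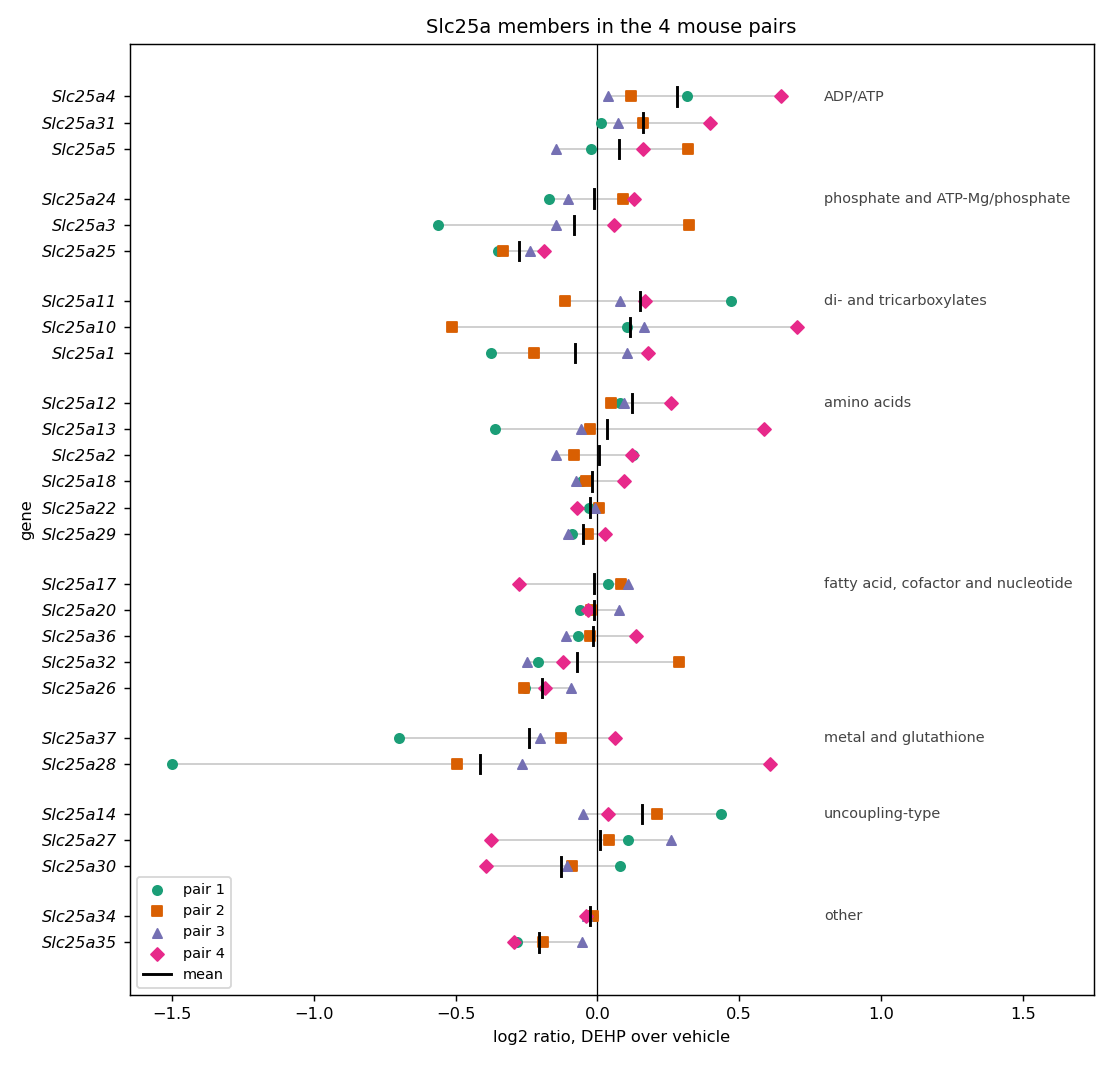
Log2 ratio of DEHP over vehicle (x axis) of the tested members (y axis, grouped by role), with a symbol for each of the 4 mouse pairs and a black bar for the mean. Most members lie close to 0 with pairs on both sides, Slc25a25 lies below 0 in all 4 pairs (-0.35 to -0.19), and Slc25a28 has the widest spread (-1.50 to 0.61).

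The ADP/ATP carriers exchange cytosolic ADP for the ATP made in mitochondria, and all 3 had a mean above 0, with a median of 0.16. Slc25a4, the main form of heart and muscle, had log2 ratios of 0.32, 0.12, 0.039 and 0.65 in pairs 1 to 4. The mean was 0.28 ± 0.27 (SD, n = 4 pairs), a 1.21-fold difference, with an interval of -0.0061 to 0.57 and an unadjusted p of 0.0535 (adjusted p = 0.922 in limma). In pair 4, which had the single highest ratio, vehicle mouse 1 had the lowest level among the 8 mice. Its partner, DEHP mouse 4, had the lowest level of the DEHP mice. Levels of Slc25a4 were 12.00, 11.97, 11.87 and 11.71 in DEHP mice 1 to 4 and 11.07, 11.68, 11.86 and 11.83 in vehicle mice 1 to 4 (log2 intensity). The DEHP mice lay close together (SD 0.13), vehicle mouse 1 stood below all other mice, and the groups overlapped. Without pair 4 the mean of Slc25a4 was 0.16. Its other tested probe gave 0.14 ± 0.22, with pair 3 below 0 (-0.051).

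Slc25a31, the germ cell form, had log2 ratios of 0.012, 0.16, 0.072 and 0.40 in pairs 1 to 4, with a mean of 0.16 ± 0.17 (SD, n = 4). It was above 0 on 8 of 8 arrays. Its levels were 7.57, 7.80, 7.55 and 7.71 in DEHP mice 1 to 4 and 7.31, 7.55, 7.64 and 7.48 in vehicle mice 1 to 4 (log2 intensity). The groups overlapped: DEHP mice 1 and 3 lay below vehicle mouse 3. Its unadjusted p was 0.0981, and without pair 4 the mean was 0.082. Elongating spermatid markers, whose median was -0.43, 0.038, 0.11 and 0.30 in pairs 1 to 4, were likewise highest in pair 4, whereas the medians of the round spermatid, spermatogonia and spermatocyte markers in pair 4 were -0.23, -0.20 and -0.049. Their part in the value of Slc25a31 was not tested. Slc25a5, the widely expressed form, had -0.024, 0.32, -0.15 and 0.16, with 2 pairs on each side of 0 and a mean of 0.078 ± 0.20.

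The phosphate and ATP-Mg/phosphate carriers set the phosphate and adenine nucleotide content of the matrix, and all 3 tested members had a mean below 0. Slc25a25, a calcium-regulated ATP-Mg/phosphate carrier, had the smallest p of the family. Its log2 ratios were -0.35, -0.33, -0.24 and -0.19 in pairs 1 to 4, with a mean of -0.28 ± 0.077 (SD, n = 4) and an interval of -0.42 to -0.13. It was above 0 on 0 of 8 arrays, and both dye orientations gave nearly the same mean (-0.27 where DEHP was in Cy5, -0.28 in the swapped arrays). The unadjusted p was 0.00383 and the adjusted p in limma 0.922.

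The levels of Slc25a25 in the mice of the groups overlapped, a comparison that leaves out the pairing. Levels were 10.85, 11.13, 11.20 and 11.56 in DEHP mice 1 to 4 and 11.75, 11.20, 11.46 and 11.44 in vehicle mice 1 to 4 (log2 intensity). DEHP mouse 4 stood above 3 of the 4 vehicle mice, and the SD among the vehicle mice was 0.22. Within each pair the DEHP mouse was the lower. Each mouse was measured on the arrays of its own pair alone, so level differences across pairs include any between arrays. The probes of Slc25a25 also differed from each other. The brightest (chr2:32422402-32422461, minus strand) gave the values above. A second one nearby (chr2:32422066-32422125) gave -0.60, -0.26, -0.32 and 0.091, with a mean of -0.27 ± 0.28. The third, at chr2:32424723-32425052, gave 0.14, 0.57, -0.28 and -0.36, with a mean of 0.017 ± 0.43. The mean over the 3 probes was -0.18.

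**Figure D2:**
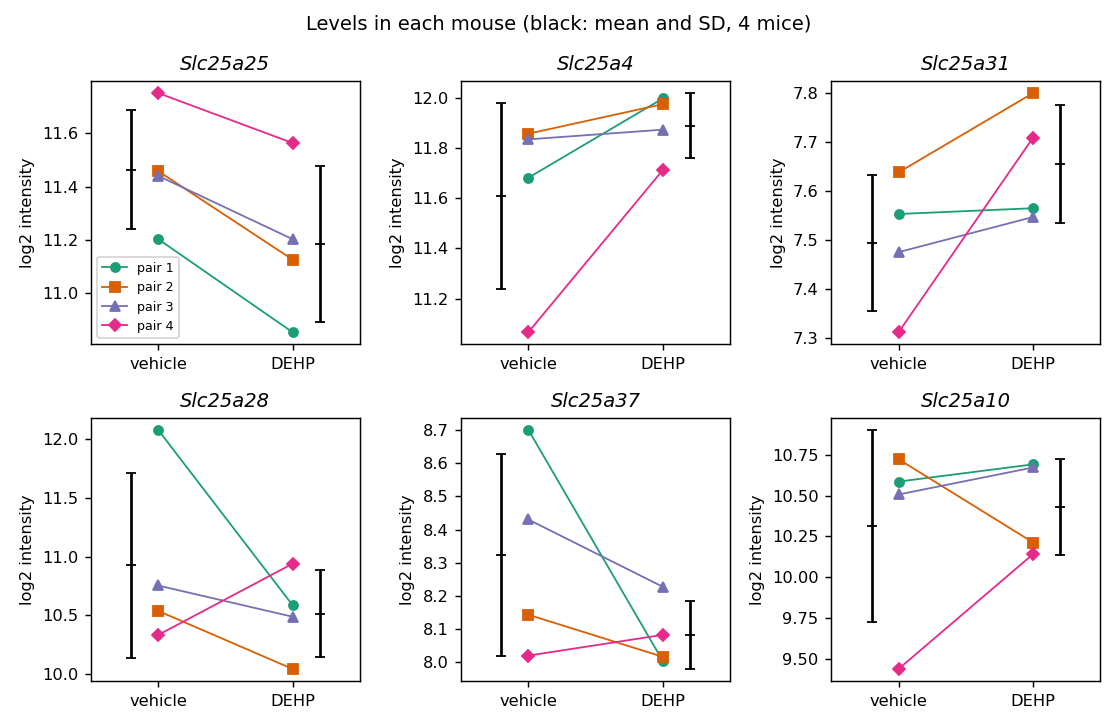
Log2 intensity (y axis) of 6 members in each vehicle and DEHP mouse; a line joins the mice of a pair and black bars give the mean and SD of 4 mice. Slc25a25 has 4 lines that run down from vehicle to DEHP but overlapping groups, the steep line of pair 4 in Slc25a4 and Slc25a10 starts at a low vehicle mouse 1, and that of pair 1 in Slc25a28 starts at a high vehicle mouse 2.

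Slc25a3, the phosphate carrier that feeds ATP synthase, had log2 ratios of -0.56, 0.32, -0.15 and 0.057. Its mean of -0.082 ± 0.37 was small against this spread, and without pair 1 the mean was 0.078. Slc25a24, another calcium-regulated ATP-Mg/phosphate carrier, had a mean of -0.014 ± 0.15, and its other tested probe had the opposite sign (0.081).

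The carriers of di- and tricarboxylates link the citric acid cycle with lipid synthesis, gluconeogenesis and the malate-aspartate shuttle, and their values scattered on both sides of 0 (median 0.12). Slc25a10, the dicarboxylate carrier, had log2 ratios of 0.11, -0.51, 0.17 and 0.71, with a mean of 0.12 ± 0.50. Pairs 2 and 4 thus lay far apart on opposite sides of 0. Its levels were 10.69, 10.21, 10.67 and 10.14 in DEHP mice 1 to 4 and 9.44, 10.59, 10.72 and 10.51 in vehicle mice 1 to 4 (log2 intensity). Vehicle mouse 1 alone was below 10, and its partner, DEHP mouse 4, was the lowest of the DEHP mice. Without pair 4, which holds both, the mean turned to -0.080.

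Slc25a11, which exchanges oxoglutarate for malate, had 0.47, -0.11, 0.080 and 0.17, with a mean of 0.15 ± 0.24. Both dye orientations gave nearly the same mean for it (0.16 and 0.15), but without pair 1 the mean was 0.045. Slc25a1, which exports citrate, had -0.37, -0.23, 0.10 and 0.18, with 2 pairs on each side of 0 and a mean of -0.080 ± 0.26. Without pair 1 that mean was 0.019.

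The amino acid carriers had a median of -0.0069. Slc25a12, the aspartate/glutamate carrier of brain and muscle, had log2 ratios of 0.081, 0.047, 0.095 and 0.26, above 0 in all 4 pairs, with a mean of 0.12 ± 0.095. The dye orientations disagreed for it, with 0.25 when DEHP was in Cy5 and -0.012 when it was in Cy3. Slc25a13, the liver form of the same carrier, had -0.36, -0.028, -0.057 and 0.59, with a mean of 0.036 ± 0.40. Pair 4 alone set its sign: without pair 4 the mean was -0.15. Of the other members of this group, the ornithine carrier Slc25a2 had 0.0050, the glutamate carriers Slc25a18 and Slc25a22 had -0.019 and -0.027, and Slc25a29, a carrier of basic amino acids, had -0.049. Slc25a22 and Slc25a29 were dim, with 4 of 8 DEHP channels above background each. Their values depended on the processing: with Agilent's processed ratio the mean was 0.30 for Slc25a22 and -0.26 for Slc25a29.

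The carriers of fatty acid, cofactor and nucleotide substrates had a median of -0.014. Slc25a20, which exchanges carnitine for acylcarnitine, had log2 ratios of -0.062, -0.023, 0.076 and -0.035. Its mean was -0.011 ± 0.060, with an interval of -0.15 to 0.12. The probe was dim, above background in 4 of 8 DEHP channels and 5 of 8 vehicle channels, and a ratio near background understates a change.

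Slc25a26, which imports S-adenosylmethionine for methylation in the matrix, had -0.25, -0.26, -0.092 and -0.18, below 0 in all 4 pairs, with a mean of -0.20 ± 0.078 and an unadjusted p of 0.0161. That evenness over pairs hid a difference between dyes. The arrays with DEHP in Cy5 gave a mean of 0.092 and those of the other orientation -0.49, and all 4 arrays of each orientation had the sign of their orientation. It was the only one of the 28 members with such a split. The probe of Slc25a26 that carries the signature shown above gave -0.22, 0.033, 0.32 and -0.060, with a mean of 0.018 ± 0.23. Slide and dye orientation coincide in this design and cannot be told apart.

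Of the remaining members of that group, the folate carrier Slc25a32 had a mean of -0.073, the pyrimidine nucleotide carrier Slc25a36 had -0.017 and the peroxisomal carrier Slc25a17 had -0.011. All of these lay within their spread over pairs.

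The metal carriers of the family are the mitoferrins, which bring iron into mitochondria for heme and iron-sulphur clusters, and both had a mean below 0 whose size rested largely on pair 1. Slc25a28 (mitoferrin 2) had log2 ratios of -1.50, -0.50, -0.27 and 0.61, with a mean of -0.41 ± 0.87, the widest spread of the 28 members. The 2 arrays of each pair nearly coincided for it, with a dye-swap error (the deviation of either array from the mean of its pair, as root mean square) of 0.0082. The difference thus lay between pairs and not between the 2 arrays of a pair. Its levels were 10.58, 10.04, 10.49 and 10.94 in DEHP mice 1 to 4 and 10.33, 12.08, 10.54 and 10.75 in vehicle mice 1 to 4 (log2 intensity). Vehicle mouse 2 stood well above the next highest, DEHP mouse 4, and without pair 1, which holds it, the mean was -0.051; without pair 4 it was -0.75.

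Slc25a37 (mitoferrin 1), which serves red cell precursors above all, had -0.70, -0.13, -0.20 and 0.063, with a mean of -0.24 ± 0.32. Its levels were 8.00, 8.02, 8.23 and 8.08 in DEHP mice 1 to 4 and 8.02, 8.70, 8.14 and 8.43 in vehicle mice 1 to 4 (log2 intensity). Vehicle mouse 2 was again the highest of the 8 mice, and without pair 1 the mean was -0.089. Its other tested probe gave -0.32 in pair 1 but 0.26 in pair 2, with a mean of -0.14 ± 0.27. Elongating spermatid markers had a low pair 1 as well (median -0.43), and their summed level in vehicle mouse 2 (20.03) was the highest of the vehicle mice; over all mice it ran from 19.58 to 20.04 in the DEHP group and from 19.58 to 20.03 in the vehicle group. Round spermatid markers did not follow: their median in pair 1 was 0.054, and their summed level in vehicle mouse 2 (17.38) was the lowest of the 8 mice. The part of these cells in the mitoferrin values was not tested.

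The uncoupling-type members resemble the uncoupling proteins in sequence. Slc25a14 had log2 ratios of 0.44, 0.21, -0.052 and 0.038, with a mean of 0.16 ± 0.21, or 0.065 without pair 1. Its mean was 0.31 where DEHP was in Cy5 and 0.0059 in the swapped arrays. Slc25a27 had a mean of 0.0087 ± 0.27, while its other tested probes, which are dimmer, had -0.13 and -0.079. The probe with -0.079 was above background in 2 of 8 DEHP channels and 8 of 8 vehicle channels. It passed the filter through the vehicle channels alone, so its sign is no independent evidence. Slc25a30 had a mean of -0.13 ± 0.20 on its brightest probe, 0.077 on another and -0.039 on the probe with the signature shown above.

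Of the members without a settled substrate, Slc25a35 had -0.28, -0.19, -0.055 and -0.29, below 0 in all 4 pairs, with a mean of -0.21 ± 0.11 and an unadjusted p of 0.0216. Its levels were 7.33, 7.41, 7.79 and 7.63 in DEHP mice 1 to 4 and 7.92, 7.61, 7.60 and 7.84 in vehicle mice 1 to 4 (log2 intensity). The groups overlapped, since DEHP mice 3 and 4 lay above vehicle mice 2 and 3. Its other tested probe had -0.011. Slc25a34 had -0.027 ± 0.013, also below 0 in all 4 pairs, with an unadjusted p of 0.602 in limma. The dye orientations disagreed for it, with 0.062 when DEHP was in Cy5 and -0.12 when it was in Cy3.

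The spread between mouse pairs was larger than the dye-swap error for most members, and the limma fit takes its error from the pair means alone. The SD over pairs had a median of 0.17 over the members and 0.18 over all genes, with a range of 0.013 to 0.87 among members. The dye-swap error had a median of 0.066 over the members and 0.073 over all genes. The SD over pairs was above the dye-swap error for 23 of 28 members, against 81.1% of all genes. Slc25a26, Slc25a12, Slc25a34 and Slc25a22 were among those where the dye-swap error was the larger. A dye difference that is the same in every pair counts in that error but cancels in the pair means. Across all tested probes, the 2 arrays of a pair correlated by 0.594 to 0.731.

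**Figure D3:**
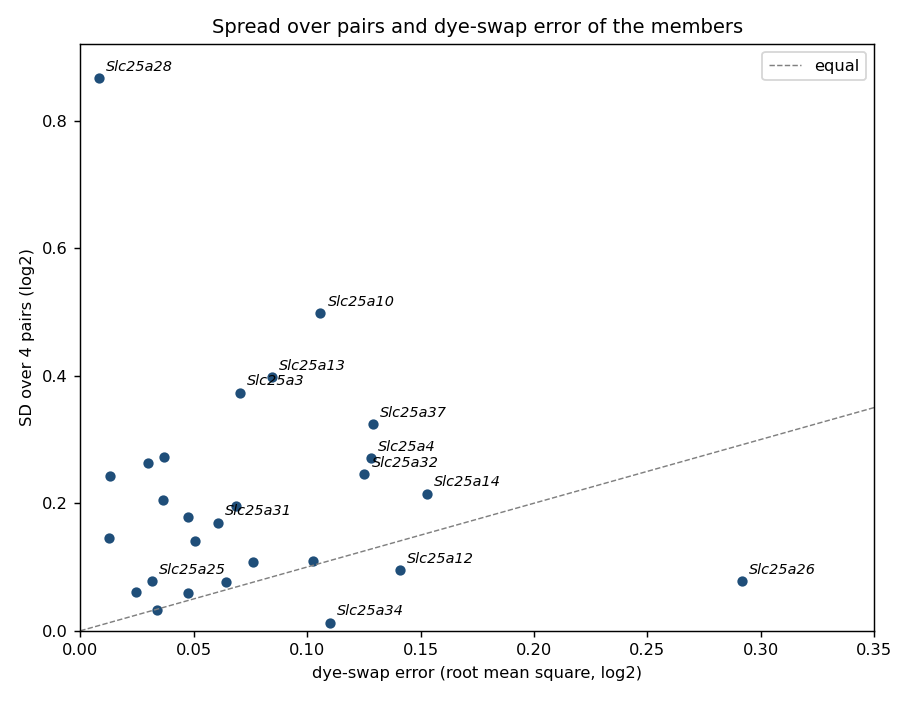
SD over the 4 pairs (y axis, log2) against the dye-swap error of the same gene (x axis, log2) for the tested members, 1 point each; the dashed line marks equal values. Slc25a28 has the largest SD over pairs (0.87) with a dye-swap error of 0.0082, and Slc25a26 lies far to the right at 0.29.

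Several mice of both groups were the highest or lowest for more members than others. Vehicle mouse 1 had the lowest level of the 8 mice for 12 of 28 members, against 21% of all genes. Vehicle mouse 2 had the highest level for 7 of 28 members, against 15.6% of all genes. Vehicle mouse 1 was also the highest for 5 members (19% of genes). Among the DEHP mice, mouse 1 was the lowest for 6 members (11.7% of genes) and mouse 2 the highest for 5 (11% of genes). No mouse was set apart by its label, and all stayed in every value given here unless it is said that their pair was left out.

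Where a member had several tested probes, these often disagreed in sign. This was so for 5 of 10 such members (Slc25a24, Slc25a25, Slc25a26, Slc25a27 and Slc25a30), against 42.5% of the 4613 genes with several tested probes. For Slc25a24 the disagreeing probe was dim and had passed the filter through the DEHP channels alone. Slc25a4, Slc25a17, Slc25a35, Slc25a36 and Slc25a37 kept the same sign on all their tested probes.

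Carriers that the array lists under other names, among them the uncoupling proteins, had a median of -0.045, with 4 of 14 tested above 0 and 0 called. Slc25a33, a pyrimidine nucleotide carrier, had -0.47, -0.15, -0.21 and -0.13 in pairs 1 to 4, below 0 in all of them, with an unadjusted p of 0.0235. Ucp2, an uncoupling protein that exports carbon metabolites from the matrix, had 0.49, 0.049, 0.041 and 0.62, above 0 in all 4 pairs, with a mean of 0.30 ± 0.30 and an unadjusted p of 0.0555. In pairs 2 and 3 the ratio of Ucp2 was close to 0.

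The import machinery that inserts carriers into the inner membrane had a median of 0.063, with 10 of 12 tested genes above 0 and 0 called. Tomm70a, the outer membrane receptor for carrier precursors, was one of the 2 below 0, with -0.12, -0.48, -0.30 and -0.14 and an unadjusted p of 0.0199. The enzymes that work with carriers in the malate-aspartate, citrate and carnitine shuttles had a median of -0.039, with 4 of 13 above 0 and 0 called. Crat, which transfers acetyl groups to carnitine, had the lowest mean of that list at -0.34 and an unadjusted p of 0.0271. Its ratios were -0.41, -0.47, -0.53 and 0.055, so pair 4 lay above 0. The outer membrane channels Vdac1, Vdac2 and Vdac3 had a median of 0.072 with 2 of 3 above 0, and other transporters of the inner membrane had 0.035 with 8 of 10 above 0. No gene of these lists had an adjusted p under 0.05 in limma. At an unadjusted p under 0.05 there was 1 of 14 other carriers, 2 of 12 import genes and 1 of 13 shuttle enzymes. The outer membrane channels had 0 of 3 and the other inner membrane transporters 0 of 10. Over all genes by current symbol, as these lists are read, the count was 725 of 14307, and by array name the share was 5.29%.

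The authors' deposited table of log2 ratios covers 21 of the 28 members, 20 of them by the same probe. In the authors' deposited table the mean was -0.25 for Slc25a25, 0.30 for Slc25a4, -0.41 for Slc25a28 and -0.28 for Slc25a37; that of Slc25a25 lacks 1 of its 8 arrays. Only 1 of the 21 had the other sign there: Slc25a30, at 0.14 in the authors' deposited table, where it is read by a different probe from the one with -0.13. In the authors' deposited table the median over these members was 0.019, with 11 of 21 above 0.

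**Figure D4:**
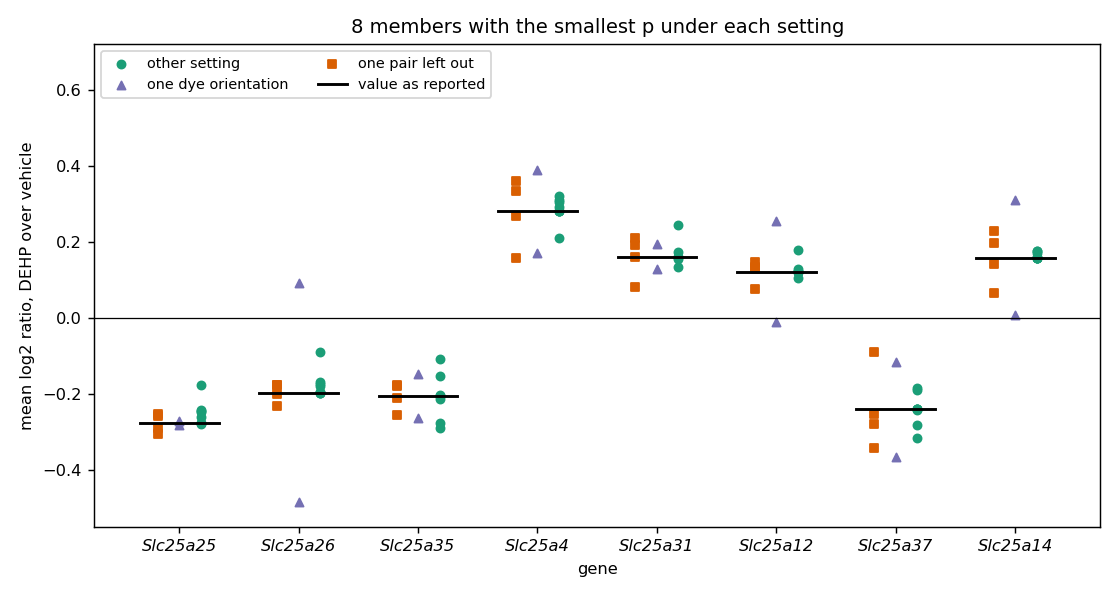
Mean log2 ratio of DEHP over vehicle (y axis) of the 8 members with the smallest p (x axis) under each alternative setting: a pair left out (squares), a single dye orientation (triangles) and other settings (circles), with a black bar for the value reported in the text. Slc25a25 stays between -0.31 and -0.18, whereas the triangles of Slc25a26 lie at 0.092 and -0.49.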

How the data were processed

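Spot intensities (mean foreground, median background) were extracted with Agilent Feature Extraction, version 9.5.1.1, per the file headers, and are not background-corrected. Coordinates are the array design's own, in mm7. Per the file headers, that software also wrote a log10 ratio (Cy5 over Cy3) from its processed signals. The authors deposited a table of log2 ratios, made with limma per the submitters' processing notes; its match to the spots and its direction (DEHP over vehicle) were read from the values.

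Intensities were corrected by normexp (offset 50), normalised by loess within arrays, averaged over a probe's spots and turned to DEHP over vehicle, and the 2 arrays of a pair were averaged into 4 independent values. Spots that the software flags for uneven background (0 to 54 per array) were left out before normexp, a choice made after seeing that they distorted its fit on 3 arrays. No spot was saturated (0 per array). An intercept was fitted over 22974 probes with limma (version 3.58.1; R 4.3.3, statmod 1.5.0), 2-sided, with Benjamini-Hochberg adjustment at 0.05. Levels per mouse are separate channels after loess and Aquantile, averaged over 2 arrays. Mice of different pairs never shared an array, so differences between their levels cannot be told apart from differences between arrays. A dye effect cancels in a pair mean. Ratios near background understate a change. The number of mouse pairs limits the precision.

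The members, lists and tests were chosen with earlier results of these data known. Members given in full are the 8 with the smallest p, the 3 highest and 3 lowest means and 10 fixed by role; other tested members are given by their mean. Of related genes, the 3 with the smallest p and Ucp2 are named. Symbols come from RefSeq tables (22951 probes by accession, 6659 by symbol, 3109 by synonym, 8455 unmatched). Alternatives covered background, normalisation, filter, dye orientation, pairs, probe choice and the authors' table. The background correction, normalisation and filter behind the authors' table are not given in the sources used here. Protein sequences were not used here, and a member and a marker that the rules name are not reported here.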

Additional observations from a re-analysis of the deposited data

Results flagged for a closer look

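In 3 of 84 groups of 4 values examined (the pair ratios, DEHP levels and vehicle levels of 28 members), a single value lay far from the other 3 by Dixon's criterion, which is 3.57% where chance gives about 1 in 20. For Slc25a10, vehicle mouse 1 had a level of 9.44 against 10.51 to 10.72 in the other vehicle mice (log2 intensity). For Slc25a17, vehicle mouse 2 had 11.49 against 11.76 to 11.78. For Slc25a32, vehicle mouse 3 had 7.07 against 7.29 to 7.33. All 3 were low values of vehicle mice, each in a different mouse.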

How the results depend on the processing

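In each of 14 alternatives with a test, limma called 0 probes of the table; the mean over a gene's probes, a further alternative, has no test. The members' median moved by less than its spread over pairs and the number of members above 0 by less than 1.5 times; in the authors' deposited table, which holds 21 members, the median was 0.019 and so above 0. At an unadjusted p under 0.05 the table held 717 to 2745 probes against 1191 as reported, and the members so counted ran from 0 (Agilent's processed ratio and the authors' deposited table) to 5 (DEHP in Cy5 alone) against 3 of 28. A fit of all 8 arrays took the pair as a random replicate block (correlation within pairs 0.882) and held a dye term. It called 0 probes in limma, with a smallest adjusted p of 0.114, and gave the members the same median of -0.015. The pairing comes from the arrays' labels, and a fit without it was not run. Without 1 pair in turn, the median ran from -0.048 to -0.0036 and the members above 0 from 9 to 14. Over these and the other settings, Slc25a25 ran from -0.31 to -0.18 (lowest adjusted p = 0.321) and Slc25a4 from 0.16 to 0.39 (0.392). Slc25a28 ran from -0.75 to -0.051.

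The direction turned for 8 members given in full, none of which was called. With DEHP in Cy5 alone, Slc25a26 had 0.092 and Slc25a13 -0.031; in the other orientation alone, Slc25a12 had -0.012 and Slc25a20 0.0019. Slc25a20, near 0 throughout, also had 0.0072 with Agilent's processed ratio, 0.00090 with median centring and 2.134e-05 with normexp fitted on all spots, the last an alternative added after seeing the data. Leaving out 1 pair, the range was -0.0031 to 0.15 for Slc25a5, -0.17 to 0.019 for Slc25a1, -0.080 to 0.33 for Slc25a10, -0.22 to 0.078 for Slc25a3, -0.15 to 0.17 for Slc25a13 and -0.040 to 0.0061 for Slc25a20. Apart from these fits with fewer arrays, the cause was not tested. Signal over background limits Slc25a20, Slc25a22, Slc25a29 and Slc25a34, which were near background in several channels.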
